A study of Mus musculus with 2 samples.

Results

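Expression of 10 genes that are associated with fetal liver or with liver tumors was followed cell by cell in mouse liver: Afp, Gpc3, H19, Igf2, Golm1, Ly6d, Tmem45b, Sybu, A2ml1 and Dnajc12. They were taken by symbol from the 32285 genes counted. The genes had been picked for their difference between the WT and N-LKO libraries of these same data, so that contrast is described here and no test is built on it. The WT library came from control liver, labelled CTRL. The N-LKO library came from liver plus tumor labelled NgBR KO, in which albumin-Cre, active in hepatocytes, had removed the loxP-flanked Nus1 gene. The study gives no number of mice for these libraries. Mice of both groups had been on the diet for 16 weeks, named HFD in the sample titles and WD in the treatment labels, and all strains were of C57BL6 background. Cells were released by collagenase perfusion. Hepatocytes and nonparenchymal cells, and for N-LKO also tumor cells, were mixed at set ratios before loading, so the share of each cell type was set in part by hand. Each group had 1 library. Genotype, tumor tissue and library differ together and cannot be told apart.

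Oncofetal genes are active in the fetal liver, fall silent soon after birth and can come back in regenerating liver and in hepatocellular carcinoma. α-Fetoprotein, encoded by Afp, is the fetal counterpart of albumin and a serum marker of liver cancer. Gpc3 encodes glypican-3, a cell surface heparan sulfate proteoglycan, and H19 and Igf2 are neighboring imprinted genes, a noncoding RNA and a fetal growth factor. The remaining 6 genes have varied roles. Golm1 encodes a Golgi membrane protein (GP73) that is shed into serum in liver disease. Ly6d encodes a GPI-anchored surface protein known from B cell and epithelial progenitors, and Tmem45b a transmembrane protein. Sybu encodes syntabulin, which links syntaxin-bearing cargo to kinesin, A2ml1 a protease inhibitor of the α2-macroglobulin family, and Dnajc12 a co-chaperone of the aromatic amino acid hydroxylases.

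The libraries held 85522287 UMIs on 100171 barcodes (WT) and 87575064 UMIs on 90147 barcodes (N-LKO), and 18435 and 19850 cells were kept. The kept cells of the libraries had 122 barcode sequences in common, and the whole matrices 2499. Hepatocyte-like cells numbered 9956 in WT (median 1519 UMIs) and 4095 in N-LKO (median 1776 UMIs), in 6 clusters that hardly mixed: 98.8% of the WT cells were in clusters made up mainly of WT cells and 97.2% of the N-LKO cells in clusters made up mainly of N-LKO cells. The 4 WT clusters were a main cluster (8181 WT cells), a Malat1-poor (1180), a Malat1-rich (319) and an Oat-led cluster (159). The N-LKO clusters were a Spink1-led cluster (1988 N-LKO and 116 WT cells) and a Malat1-rich cluster (1993 N-LKO and 1 WT cell). Malat1 is a nuclear RNA. The N-LKO Malat1-rich cluster had only 3 hepatocyte markers raised, and its hepatocyte score of 0.168 was near the naming limit of 0.15. Its Alb level, 4172 CPM, was near that of N-LKO endothelial-like cells (3991 CPM). Its Egfr level, 1672 CPM, was like that of the WT Malat1-rich cluster (1596 CPM) and above that of the Spink1-led cluster (488 CPM). Hnf4a was also alike in the Malat1-rich clusters, at 251 CPM in N-LKO and 230 CPM in WT. Ghr (3080 against 6621 CPM), Abcb11 (593 against 1226) and Cps1 (2521 against 7040) were lower in the N-LKO one. So was the sum of 10 hepatocyte markers (12629 against 24067 CPM), while the sum of 7 Kupffer cell markers was higher (689 against 344). The sums over hepatocyte-like cells include the N-LKO Malat1-rich cluster. With it left unnamed 5.51% of all genes were past the threshold explained below as higher in N-LKO, against 20.9% with it. Nus1 was at 75.5 CPM in the WT main cluster, 38.6 CPM in the N-LKO Spink1-led cluster and 27.7 CPM in the N-LKO Malat1-rich cluster. The 3′ tag lies outside the targeted first exon, so RNA of the deleted allele could still be counted.

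All levels are UMIs summed over the cells of a cluster or class and scaled to a common total of 1000000 (CPM). Ranges in parentheses are 95% intervals that cover counting error only, not the spread between mice, which 1 library per group cannot show. Barcodes with fewer than 500 UMIs (18526 in WT and 13674 in N-LKO) served as a background. They were taken to hold mostly RNA that floats free in the suspension, which was not tested. The lowest barcodes deposited already had 326 UMIs in WT and 377 in N-LKO. The mitochondrial share of this background was 21.1% in WT and 34.8% in N-LKO, against 19.7% and 15.1% in hepatocyte-like cells. A difference was counted when it reached a log2 ratio of 1 in either direction with an interval that excluded 0, among genes with at least 5 CPM in a library.

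For Afp and A2ml1, an oncofetal member and a member counted mostly in hepatocyte-like cells of both libraries, the 250 bases before the RefSeq start site are shown because these proximal promoters are where liver factors are known to act on Afp. The Afp window is chr5:90490464-90490713, plus strand, and the A2ml1 window is chr6:128581607-128581856, minus strand, both in GRCm38.p6. Capitals mark matches to the motifs named beneath.

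Afp: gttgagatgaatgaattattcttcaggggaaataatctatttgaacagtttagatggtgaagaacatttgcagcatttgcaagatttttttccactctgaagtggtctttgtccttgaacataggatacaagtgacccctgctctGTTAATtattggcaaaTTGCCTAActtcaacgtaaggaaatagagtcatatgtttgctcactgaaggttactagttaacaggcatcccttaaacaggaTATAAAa

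A2ml1: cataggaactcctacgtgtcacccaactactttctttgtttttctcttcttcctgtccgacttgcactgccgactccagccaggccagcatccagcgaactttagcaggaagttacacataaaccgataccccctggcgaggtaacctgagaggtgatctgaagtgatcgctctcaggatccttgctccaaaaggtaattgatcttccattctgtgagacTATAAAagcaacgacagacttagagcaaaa

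In the Afp window the capitals are, in order, an HNF1 core (GTTAAT, first base at −105 from the start), a C/EBP core (TTGCNNAA, at −89) and a TATA box (TATAAA, at −7). In the A2ml1 window they are a TATA box at −30. These positions count from the RefSeq start. The annotation used for gene spans starts Afp further on, at chr5:90490737, and from there its matches lie further upstream. Searched on both strands of 32851 RefSeq windows of this length, the HNF1 core was found in 6.43%, the C/EBP core in 9.56% and the TATA box in 12.4%. TGANTCA (AP-1) was in 6.75% and CAAAGTCCA (HNF4) in 0.384%, and the windows of these genes held neither. None of the motifs contains another. Windows were at hand for 5 of the 10 genes, and of the other 3, the Golm1 window held a TATA match at −185, and those of Gpc3 and Igf2 had no match. These matches are descriptions of sequence.

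In hepatocyte-like cells, 7 of the 10 genes reached 5 CPM: H19, Golm1, Ly6d, Tmem45b, Sybu, A2ml1 and Dnajc12. The nearest to the limit were Golm1 inside it (7.45 CPM in N-LKO) and Gpc3 (2.96), Afp (2.84) and Igf2 (2.01) outside it. Of these 7, 5 were past the threshold as higher in N-LKO and 0 as lower. Over all 10589 genes at this level 20.9% were past it as higher and 2.39% as lower (10.6% and 6.42% after scaling to a median log2 ratio of 0), and since the genes had been picked on this contrast nothing is read from their count. The median log2 ratio was 4.33 for the 7 genes and 0.38 for all genes. When the N-LKO Spink1-led cluster was set against the WT main cluster, 6 of 7 were higher (6.53% of all genes higher and 3.22% lower), and between the Malat1-rich clusters 5 were higher and 1 lower (12.0% and 8.86%). Golm1, among these 5, had 0 UMIs in WT. With WT set at 3 UMIs it was at least 1.93-fold higher, short of the threshold. The 10 genes did not share 1 pattern: they fell into a low oncofetal group, a pair high in the Malat1-rich cluster, a pair that was high in the Spink1-led cluster, Golm1 in many classes, and Dnajc12, which was at like levels in the sums over hepatocyte-like cells and not in every cluster or class.

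**Figure D1:**
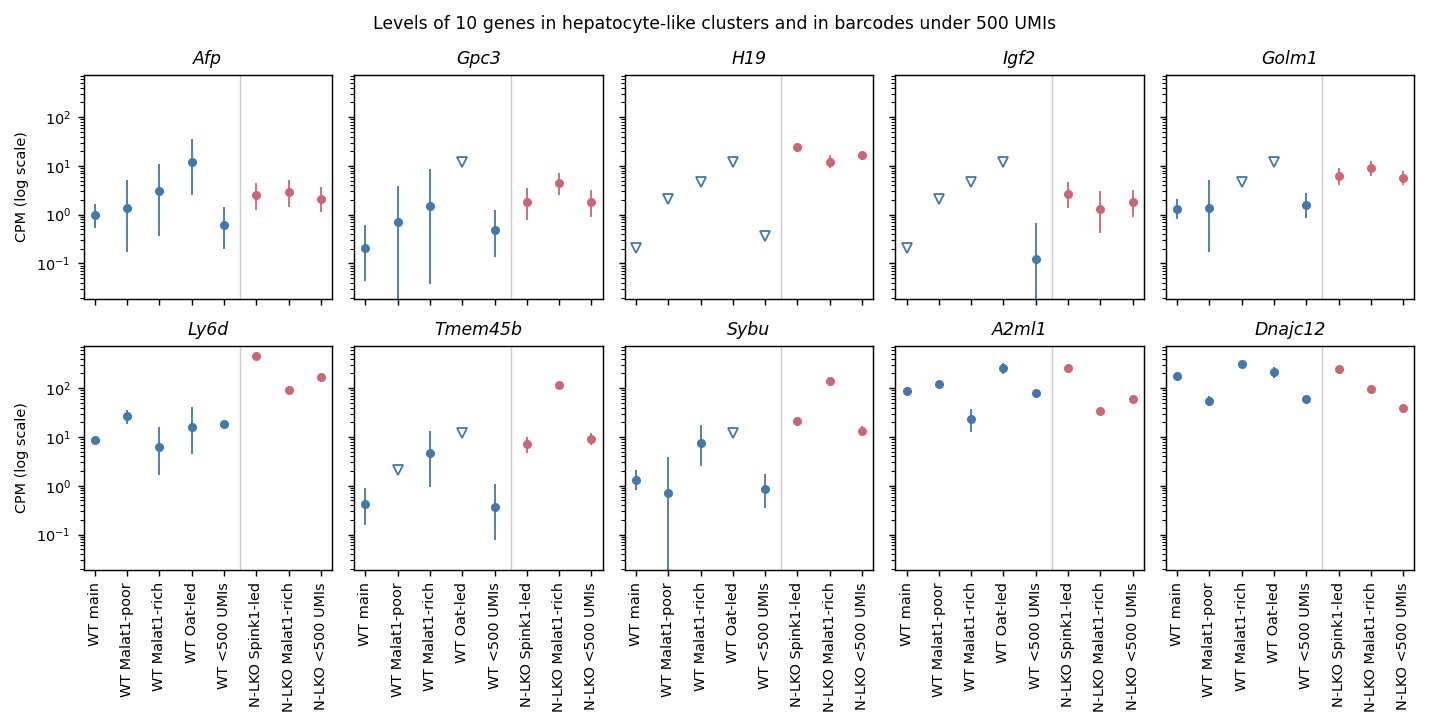
Level of each gene (CPM, log axis) in the hepatocyte-like clusters and in barcodes with fewer than 500 UMIs, WT and N-LKO, with 95% counting intervals; open triangles mark the level that 3 UMIs would give where none was counted. Ly6d stands highest in the Spink1-led cluster (461 CPM in N-LKO cells), A2ml1 is as high there (257 CPM) as in the WT Oat-led cluster (257 CPM), and Tmem45b and Sybu in the N-LKO Malat1-rich cluster (115 and 142 CPM).

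**Figure D2:**
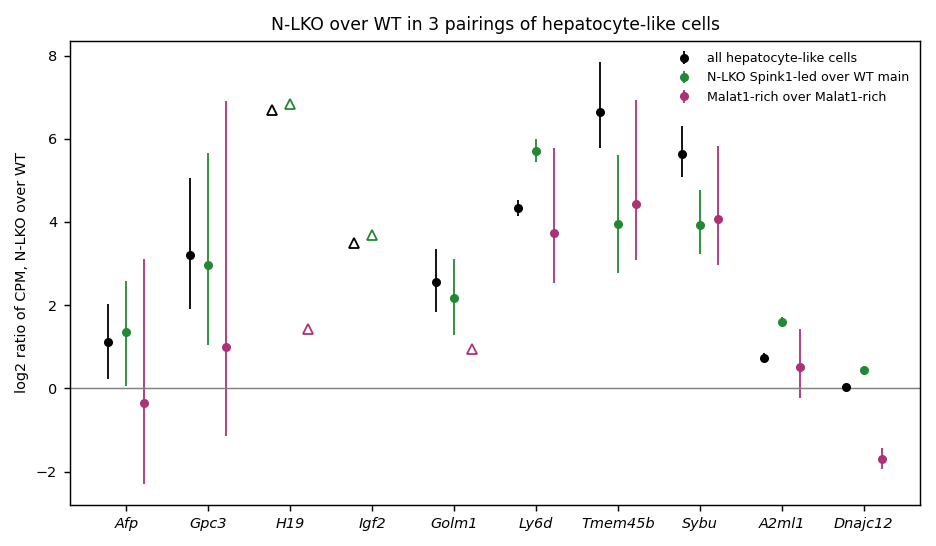
Log2 ratio of N-LKO over WT for each gene in 3 comparisons, with 95% counting intervals; triangles are lower bounds for genes with 0 UMIs in WT. Tmem45b reaches 6.64 in all hepatocyte-like cells and Dnajc12 runs from −1.69 between the Malat1-rich clusters to 0.44 between the main pair of clusters.

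Afp and Gpc3, the oncofetal markers used most in pathology, were at or near the background in hepatocyte-like cells. Afp had 22 UMIs in WT, at 1.31 CPM (0.82 to 1.98), and 24 in N-LKO, at 2.84 CPM (1.82 to 4.22). In barcodes with fewer than 500 UMIs it was at 0.612 CPM in WT (0.199 to 1.43) and 2.13 CPM in N-LKO (1.14 to 3.65), so in each library the interval of the hepatocyte-like cells overlapped that of the background. No cell held more than 2 Afp UMIs. The N-LKO Spink1-led and Malat1-rich clusters differed little, at 2.48 CPM (1.24 to 4.44) and 2.87 CPM (1.43 to 5.14). The WT Oat-led cluster, at 12.2 CPM, rested on 3 UMIs.

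Gpc3 had 5 UMIs in WT hepatocyte-like cells (0.297 CPM) and 25 in N-LKO (2.96 CPM), and the background was at 0.49 CPM and 1.80 CPM. In the N-LKO Malat1-rich cluster it reached 4.44 CPM (2.59 to 7.11), with an interval that overlaps the background of its library (0.9 to 3.23). The cells with a clear Gpc3 level were mesothelial-like, the cells that line the liver surface: 481 CPM in WT (24 UMIs in 33 cells, 308 to 716) and 287 CPM in N-LKO (36 UMIs in 80 cells, 201 to 397). Thus 15 of 33 WT and 23 of 80 N-LKO mesothelial-like cells held a Gpc3 UMI, and the intervals of the libraries overlapped. Across 38 sums of a class or cluster in a library, the genes most like Gpc3 were Smtnl2 (Pearson r = 0.89), Nkain4 (0.88) and Gjb5 (0.87). The sums share libraries and depth, and these correlations are descriptions.

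H19 and Igf2 lie side by side on the minus strand of chromosome 7 (chr7:142575529-142578143 and chr7:142650766-142666816 in GRCm38). H19 had 0 UMIs in the 9956 WT hepatocyte-like cells and 155 in the 4095 N-LKO cells, or 18.3 CPM, at least 103-fold higher when WT is set at 3 UMIs in all. The whole WT matrix held 2 H19 UMIs, and the whole N-LKO matrix 977. H19 was not particular to hepatocyte-like cells, for N-LKO endothelial-like cells were at 10.5 CPM (7.34 to 14.6), T-like cells at 6.73 CPM (4.11 to 10.4) and barcodes with fewer than 500 UMIs at 16.6 CPM (13.5 to 20.1).

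What set the Spink1-led cluster apart was the way its H19 counts were spread over cells. Of its 107 H19 UMIs, 85 (79.4%) were in 11 of the 1988 cells, and the highest cell held 23. These 11 cells had 1257 to 4068 UMIs in total, with a median of 2321. In the rest of the cluster H19 was at 5.0 CPM (3.13 to 7.57), below the 16.6 CPM of the background. The Malat1-rich cluster held 47 H19 UMIs in 42 cells, at most 2 in 1 cell, at 12.3 CPM (9.02 to 16.3). The variance of the counts was 10.1 times their mean in the Spink1-led cluster and 1.19 times in the Malat1-rich cluster, where 1 is the value of counts that fall at random. After thinning every cell to 1000 UMIs, 1.01% (0.616 to 1.55) of Spink1-led cells had an H19 UMI, beside 0.776% (0.435 to 1.28) of T-like cells and 1.05% (0.671 to 1.55) of endothelial-like cells. Unthinned, the shares were 1.56%, 0.982% and 1.39%, with median depths of 1980.5, 1358.5 and 1254 UMIs. The share of cells with a UMI was thus at the level of the other classes, and only the few cells with many UMIs stood above it.

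Igf2 counts gave the same picture on fewer UMIs. WT hepatocyte-like cells had 0 and N-LKO 17 (2.01 CPM, at least 11.3-fold higher), against 1.80 CPM (0.9 to 3.23) in the N-LKO background. In the Spink1-led cluster all 12 Igf2 UMIs were in 2 cells, with 9 and 3, and both were among the 11 cells with at least 3 H19 UMIs, with 3 and 9 of them. In the whole N-LKO matrix 845 barcodes held H19 and 97 held Igf2, and the 16 that held both were 16.5% of those with Igf2 and 1.89% of those with H19. Of the 20 barcodes with at least 3 H19 UMIs, 6 held Igf2. None of the 11 high cells held an Afp or Gpc3 UMI, 8 held Ly6d and 7 held A2ml1. The cells with most H19 had 23, 15, 9, 9 and 8 UMIs.

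**Figure D3:**
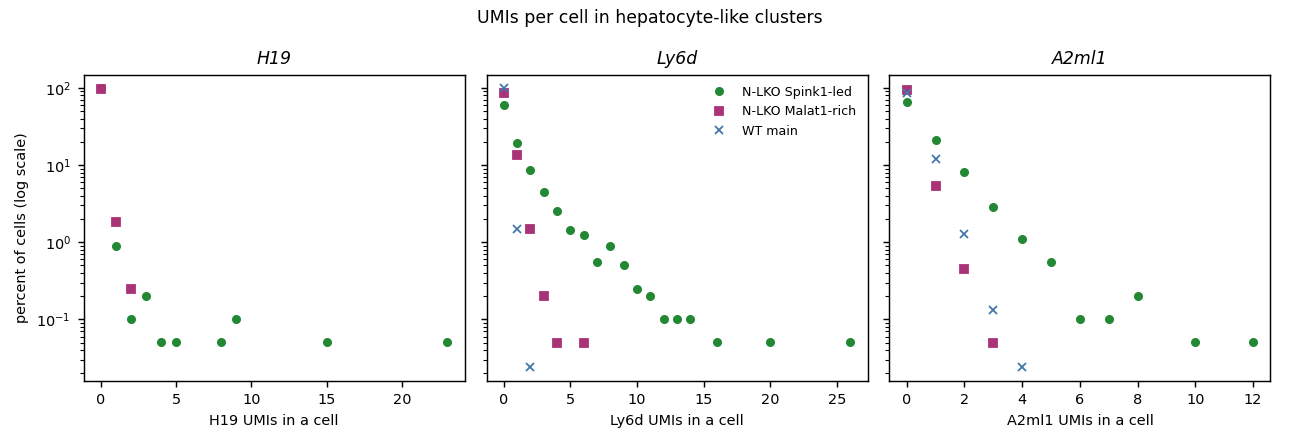
Percent of cells (log axis) by the number of UMIs of H19, Ly6d or A2ml1 in a cell, for the N-LKO Spink1-led, N-LKO Malat1-rich and WT main clusters; a point is 1 number of UMIs. H19 in the Spink1-led cluster runs out to 23 UMIs in a cell, while in the Malat1-rich cluster no cell has more than 2, and Ly6d reaches 26 UMIs in an N-LKO cell.

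Ly6d differed in the Spink1-led cluster more than in any other hepatocyte-like cluster. It had 125 UMIs in the WT main cluster (8.77 CPM, 7.30 to 10.4) and 2040 in the N-LKO Spink1-led cluster (461 CPM, 441 to 481), a log2 ratio of 5.71 (5.45 to 5.99). The N-LKO Malat1-rich cluster was at 91.2 CPM (81.9 to 101) and the WT Malat1-rich cluster at 6.14 CPM on 4 UMIs. The N-LKO Malat1-rich level was below the background of its library, 167 CPM (157 to 178), and the WT background was at 18.2 CPM (15.4 to 21.4). Ly6d was also high in the 116 WT cells that fell in the Spink1-led cluster, with 67 UMIs and 298 CPM (231 to 378). Against those cells the N-LKO cells of the same cluster were 0.62 higher on the log2 scale (0.28 to 1.00), short of the threshold. Clustering had used the expression of Ly6d, so a like level within the cluster was in part built in.

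Ly6d counts were uneven within the cluster in both libraries. In N-LKO, 252 of the 1988 cells held 3 or more UMIs and 64.4% of the Ly6d counts, with at most 26 in a cell, and in WT 9 of the 116 cells held 65.7%, with at most 13. The variance was 3.95 and 4.40 times the mean. After thinning, 28.6% (26.6 to 30.7) of N-LKO Spink1-led cells had a Ly6d UMI, against 0.953% (0.754 to 1.19) in the WT main cluster, 6.41% (5.36 to 7.60) in the T-like and 7.36% (6.33 to 8.51) in the endothelial-like cells of N-LKO. The N-LKO Malat1-rich cluster, at 9.58% (8.33 to 11), was not far above those classes. Unthinned, the shares were 40.6%, 1.5%, 9.31%, 10.3% and 15.2%.

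Outside hepatocytes Ly6d was highest in plasmacytoid dendritic-like cells, at 543 CPM in WT (465 to 631) and 552 CPM in N-LKO (500.4 to 608), and in B-like cells, at 345 CPM (291 to 406) and 314 CPM (283 to 347). In these classes, where Ly6d is known to be made, the libraries did not differ beyond counting error. Plasma-like cells were at 76.6 CPM on 13 UMIs in WT and 208 CPM on 95 UMIs in N-LKO. Endothelial-like cells had 9.54 CPM of Ly6d in the WT library and 77.0 CPM in the N-LKO library, and T-like cells 14.0 and 69.7 CPM. The endothelial-like and T-like levels of N-LKO were below its background, and the part of free RNA in them was not tested.

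Tmem45b and Sybu were highest in the N-LKO Malat1-rich cluster. Tmem45b had 9 UMIs in WT hepatocyte-like cells (0.535 CPM, 0.245 to 1.02) and 475 in N-LKO (56.2 CPM, 51.2 to 61.4), a log2 ratio of 6.64 (5.78 to 7.85). Of the 475, 442 were in the Malat1-rich cluster, at 115 CPM (105 to 127), and 31 in the Spink1-led cluster, at 7.0 CPM (4.76 to 9.94). The WT Malat1-rich cluster held 3 UMIs (4.60 CPM), for a ratio of 25.1 (8.53 to 122) between the Malat1-rich clusters.

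Sybu had the same order. It had 25 UMIs in WT hepatocyte-like cells (1.49 CPM, 0.963 to 2.20) and 637 in N-LKO (75.3 CPM, 69.6 to 81.4), a log2 ratio of 5.63 (5.09 to 6.30). The N-LKO Malat1-rich cluster was at 142 CPM (130.2 to 154), the Spink1-led cluster at 20.8 CPM (16.7 to 25.5), and the WT Malat1-rich cluster at 7.67 CPM on 5 UMIs. In WT the main cluster was at 1.33 CPM on 19 UMIs. Thus both genes were at single-digit CPM in every WT cluster, and the N-LKO Malat1-rich cluster lay above the N-LKO Spink1-led cluster with intervals that did not overlap. The 2 genes were found in the same cells of the Malat1-rich cluster somewhat more often: after thinning, 36 of 201 cells with a Tmem45b UMI (17.9%) also had Sybu, against 11.3% of the 1792 cells without it.

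Between the N-LKO Spink1-led and the WT main cluster the log2 ratio was 3.96 for Tmem45b and 3.93 for Sybu, and in the background of the libraries it was 4.43 and 3.88. The Tmem45b level of the Spink1-led cluster overlapped the N-LKO background (9.18 CPM, 6.94 to 11.9). At a mitochondrial limit of 10%, Tmem45b did not reach 5 CPM in hepatocyte-like cells and Sybu was at 2.08.

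Gene span and Malat1 are given beside these differences. Sybu spans 116 kb and Tmem45b 38.3 kb, and in all hepatocyte-like cells the 500 genes nearest in span had a median log2 ratio of 0.90 for Sybu and 0.44 for Tmem45b, against −0.12 for the 500 nearest to Ly6d (1.56 kb). The medians fell to 0.39 and 0.13 between the Malat1-rich clusters, where Sybu was at 4.07 (2.98 to 5.84) and Tmem45b at 4.43 (3.09 to 6.93). Malat1 was at 35793 CPM in the WT Malat1-rich cluster and 20130.4 CPM in the N-LKO one. A2ml1, with a span of 41.8 kb like that of Tmem45b, was at 0.74 in all hepatocyte-like cells. The part of span and nuclear RNA in the result was not tested beyond these values.

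Tmem45b and Sybu were also counted in N-LKO cells that are not hepatocytes, in some classes above the background. N-LKO endothelial-like cells were at 27.7 CPM for Tmem45b (22.3 to 34.0) and 37.6 CPM for Sybu (31.3 to 44.8), and T-like cells at 20.2 CPM (15.4 to 26.0) and 30.3 CPM (24.4 to 37.2), while barcodes with fewer than 500 UMIs were at 9.18 CPM (6.94 to 11.9) and 13.4 CPM (10.7 to 16.7). Macrophage-like cells were lower, at 7.63 CPM (5.84 to 9.80) and 8.76 CPM (6.83 to 11.1). In WT the same classes held almost no UMI of either gene: over 9 classes of at least 100 cells Tmem45b ran from 0 to 3.23 CPM with a median of 0, and Sybu from 0 to 6.45 CPM with a median of 0.

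The counts were also set against those of Egfr and Alb in the same sums. Per 1000 Egfr UMIs, Tmem45b was at 26.7 to 104 over 10 N-LKO classes of at least 100 cells that are not hepatocyte-like (median 48.9) and Sybu at 42.8 to 106 (median 76.4). The 80 mesothelial-like cells, with 1 and 2 UMIs, were at 14.5 and 29.0. The N-LKO Malat1-rich cluster was within both ranges, at 69.1 and 84.8, the Spink1-led cluster was at 14.3 and 42.6, and the background at 30.1 and 44.1. Per 1000 Alb UMIs the classes were at 1.70 to 6.94 for Tmem45b and 2.76 to 10.3 for Sybu, against 27.7 and 34.0 in the Malat1-rich cluster and 0.429 and 1.27 in the Spink1-led cluster. Egfr is also made by some cells other than hepatocytes, so its counts are not a measure of hepatocyte RNA alone. In endothelial-like and T-like cells the Egfr level was itself higher in N-LKO than in WT. The part of RNA from the Malat1-rich cells in the counts of other classes was not tested.

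**Figure D4:**
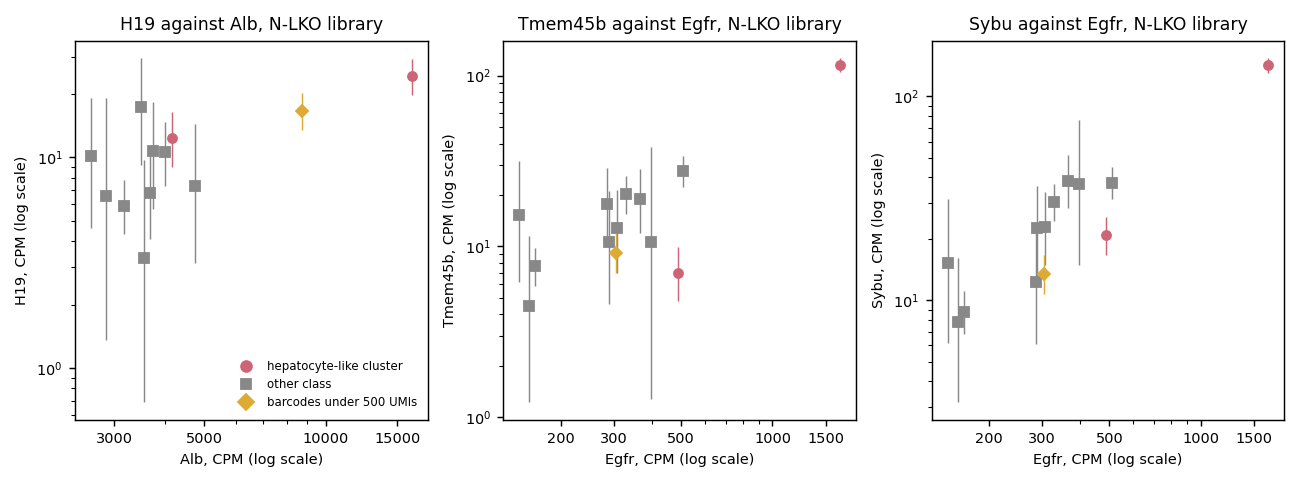
Level of H19 against that of Alb, and of Tmem45b and Sybu against that of Egfr (CPM, log axes), in the N-LKO library, with 95% counting intervals; circles are the Spink1-led and Malat1-rich clusters, squares other classes and the diamond barcodes with fewer than 500 UMIs, and sums with 0 UMIs are left out. Tmem45b in the N-LKO Malat1-rich cluster (115 CPM) and in N-LKO endothelial-like cells (27.7 CPM) both lie above the background of 9.18 CPM.

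Golm1 was lower in hepatocyte-like cells than over all other cells, in both libraries. It had 21 UMIs in WT hepatocyte-like cells (1.25 CPM, 0.773 to 1.91) and 63 in N-LKO (7.45 CPM, 5.72 to 9.53), while all cells that are not hepatocyte-like were at 10.1 CPM (8.41 to 12.1) and 14.5 CPM (13.0 to 16.1). Only 14.5% (9.19 to 21.3) of the WT and 14.9% (11.7 to 18.7) of the N-LKO Golm1 UMIs of kept cells were in hepatocyte-like cells. Those cells were 9956 of 18435 kept cells in WT and 4095 of 19850 in N-LKO, so the like shares do not stand for like levels. The log2 ratio in hepatocyte-like cells was 2.55 (1.84 to 3.36), but the background also differed, at 1.59 CPM (0.848 to 2.72) in WT and 5.74 CPM (4.0 to 7.98) in N-LKO. In N-LKO, the Spink1-led cluster (6.10 CPM, 4.02 to 8.87) and the Malat1-rich cluster (8.88 CPM, 6.15 to 12.4) overlapped each other and the background. Endothelial-like cells, at 6.07 and 7.22 CPM, and macrophage-like cells, at 10.4 and 15.4 CPM, did not pass the threshold between the libraries.

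A2ml1 was counted mostly in hepatocyte-like cells in both libraries, which held 77.0% (75.1 to 78.9) of its WT and 69.3% (67.1 to 71.4) of its N-LKO UMIs among kept cells. Of the UMIs of all genes in kept cells, they held 1.68e+07 of 2.91e+07 in WT and 8.46e+06 of 3.32e+07 in N-LKO. Over all hepatocyte-like cells A2ml1 was at 91.1 CPM in WT (86.6 to 95.8) and 152 CPM in N-LKO (144 to 161), a log2 ratio of 0.74 (0.63 to 0.85) that is short of the threshold. It was past it, at 1.32 to 1.62, with at least 2000 UMIs per cell, with a mitochondrial limit of 10% or none, with hepatocyte-like cells taken cell by cell, and without the N-LKO Malat1-rich cluster. N-LKO hepatocyte-like cells then numbered 1122 (2000 UMIs), 228 (10%), 2320 (no limit) and 1920 (cell by cell), against 4095. Whether these settings mainly dropped cells of the Malat1-rich cluster was not tested. Between clusters the spread was wider. The N-LKO Spink1-led cluster was at 257 CPM (243 to 273), the 116 WT cells of that cluster at 253 CPM (192 to 328) and the WT Oat-led cluster at 257 CPM (197 to 328), so these sums did not differ beyond counting error. The WT main cluster was at 85.6 CPM (80.9 to 90.5), with an interval that overlapped the WT background (81.3 CPM, 75.3 to 87.8), and the Malat1-rich clusters were lowest, at 23.0 CPM (12.9 to 38.0) in WT and 33.7 CPM (28.1 to 40.1) in N-LKO. A2ml1 is a leading gene of the Spink1-led cluster and was used in clustering, so its height there was in part built in. The log2 ratio of the Spink1-led over the WT main cluster was 1.59 (1.47 to 1.71), whereas the background was lower in N-LKO (60.7 CPM) than in WT. After thinning, 21.9% (20.1 to 23.8) of the N-LKO Spink1-led cells had an A2ml1 UMI, beside 2.74% of T-like and 2.75% of endothelial-like cells. The shares before thinning were 34.4%, 3.52% and 4.05%.

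Dnajc12 was at like levels in the sums over hepatocyte-like cells and differed by cluster. It was at 175 CPM in WT (169 to 181, 2941 UMIs) and 178 CPM in N-LKO (169 to 187, 1506 UMIs), a log2 ratio of 0.03 (−0.07 to 0.12). In N-LKO the Spink1-led cluster was at 243 CPM (229 to 258) and the Malat1-rich cluster at 96.7 CPM (87.1 to 107), and in WT the order was the other way, with the Malat1-rich cluster at 311 CPM (270.1 to 357) and the main cluster at 180 CPM (173 to 187). So the log2 ratio was 0.44 (0.33 to 0.54) between the main pair and −1.69 (−1.94 to −1.43) between the Malat1-rich pair. The WT Malat1-poor cluster was at 55.2 CPM (43.7 to 68.8). The background gave 58.9 CPM (WT) and 38.4 CPM (N-LKO). The genes most like Dnajc12 over the 38 sums were Insig2, which restrains sterol synthesis (r = 0.95), Ces1f (0.91) and Ahsg (0.90).

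For the other genes the closest were as follows. Tmem45b was most like Zbtb16 (r = 0.91), Scara5 (0.88) and Gm7967 (0.88), and Sybu was most like Gm7967 (0.90) and Cap2 (0.89). H19 was most like Gldn (0.80), Tmem45b (0.79) and Cpe (0.78). Ly6d was most like the acute phase genes Orm2 (0.67) and Saa1 (0.67) and Gstp2 (0.66), at lower values. A2ml1 was most like Mgst1 (0.89), Serpina1a (0.89) and Tmem205 (0.88), and Golm1 most like Tspan3 (0.85), Pdgfb (0.84) and Rbmx2 (0.82).

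Counted per cell after thinning, 23.9% of WT main and 25.7% of WT Malat1-rich cells held a UMI of at least 1 of the 10 genes. The shares were 56.1% of N-LKO Spink1-led and 38.1% of N-LKO Malat1-rich cells. In the same order, at least 2 of the genes were seen in 1.81%, 0.627%, 16.7% and 7.38% of the cells. At least 3 were seen in 0.0244%, 0%, 2.21% and 0.552%. The genes had been picked on the contrast of the libraries and some were used in clustering, so nothing is read from this order. In the N-LKO Spink1-led cluster, 24.8% (21.3 to 28.5) of 569 cells with a Ly6d UMI also had A2ml1. Of 1419 cells without a Ly6d UMI, 20.7% (18.6 to 22.9) had A2ml1, so the intervals overlapped.

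The genes were also counted in other cell classes and in the background. Among barcodes with fewer than 500 UMIs, 5 of 7 were higher in N-LKO (18.6% of all genes higher and 16.8% lower): H19, Golm1, Ly6d, Tmem45b and Sybu. In endothelial-like cells 4 of 7 were higher (11.9% of all genes higher and 7.35% lower), in T-like cells 4 of 7 (10.5% and 7.19%), and in macrophage-like cells 4 were higher and 1, Dnajc12, lower (4.73% and 6.02%). In B-like cells 3 were higher and 1 lower (6.34% and 6.66%), the latter being A2ml1 at 55.1 and 21.4 CPM. In plasmacytoid dendritic-like cells 2 of 7 were higher (4.41% and 5.26%), in neutrophil-like cells 1 of 7 (2.86% and 5.01%), in cholangiocyte-like cells 1 of 8 (3.97% and 4.47%), and in mesothelial-like cells 0 of 8 (0.881% and 2.19%). Barcodes left out for their mitochondrial share had 5 of 7 higher and 1 lower (22.8% and 9.21%), the latter Dnajc12, and those of 500 to fewer than 1000 UMIs had 5 of 7 higher (15.4% and 12.8%). Within the Spink1-led cluster, N-LKO over its 116 WT cells, 2 of 7 were higher (2.03% of all genes higher and 2.70% lower): H19, at least 1.81-fold, and Sybu, at least 1.56-fold, both at 0 UMIs in the WT cells. These bounds set WT at 3 UMIs and are short of the threshold. The bounds of H19 in B-like (1.49-fold) and plasmacytoid dendritic-like cells (1.83-fold) also fell short.

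Related genes were read from lists of pathway and family members, in hepatocyte-like cells (20.9% of all genes higher and 2.39% lower), between the Spink1-led and the WT main cluster (6.53% and 3.22%) and between the Malat1-rich clusters (12.0% and 8.86%). Values are log2 ratios in hepatocyte-like cells unless said otherwise. Of 18 genes of a fetal liver program, 4 reached 5 CPM and 3 of them were higher: Scd2, a fatty acid desaturase, at 2.19 (1.89 to 2.51), the imprinted Peg3 at 1.44 (0.81 to 2.09) and the RNA-binding Igf2bp3 at 1.16 (0.73 to 1.60). Between the Spink1-led and the WT main cluster 1 of 2 was higher, and between the Malat1-rich clusters 2 of 5. Of 24 genes tied to tumor-associated hepatocytes, 17 reached 5 CPM, 12 were higher and 0 lower, led by Spink1 at 4.51 (3.92 to 5.22), Lcn2, an iron-binding acute phase protein, at 4.29 (4.11 to 4.49) and Tspan8 at 4.11 (3.47 to 4.89). Spink1 leads a cluster that is nearly all N-LKO, so it was chosen by the same cells. The median of this list was 1.55, against 0.38 for all genes. Of its genes, 12 of 17 were higher between the Spink1-led and the WT main cluster and 10 of 16 between the Malat1-rich clusters.

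Of 14 regulators of Afp, 3 were higher, among them Zhx2, a repressor of Afp after birth, at 1.18 (1.01 to 1.35) and Nr5a2 at 1.05 (0.95 to 1.15), and 1 was lower, Cebpa at −1.09 (−1.26 to −0.93). Between the Spink1-led and the WT main cluster Zhx2 was at −0.36 (−0.69 to −0.06), so its direction depended on which clusters were set side by side. Between those clusters 1 of the 14 was higher and 0 lower, and between the Malat1-rich clusters 0 passed in either direction. Of the albumin family, Alb was lower at −1.02 (−1.03 to −1.01) and 2 others did not pass. Of the 5 other glypicans, 3 reached 5 CPM and Gpc4 was higher at 1.32 (1.20 to 1.44), and of 13 genes of the IGF axis, 9 reached it and 0 passed in either direction, while 2 of 10 were lower between the Malat1-rich clusters.

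Families of the remaining genes differed between the comparisons. Of 10 other Ly6 genes 2 reached 5 CPM and 0 passed, but between the Malat1-rich clusters 2 of 3 were higher (median log2 ratio 1.57). Of 8 α2-macroglobulin family genes 6 reached 5 CPM and 0 passed, with 1 higher and 1 lower between the Malat1-rich clusters. Of 17 J-domain co-chaperones 2 were higher, Dnajc1 at 1.19 (1.10 to 1.29) and Dnajc10 at 1.18 (0.98 to 1.38), and of the 9 genes of aromatic amino acid hydroxylation and its cofactor 6 reached 5 CPM and 1 was lower, Qdpr, which recycles tetrahydrobiopterin, at −1.27 (−1.36 to −1.18). Between the Malat1-rich clusters, where Dnajc12 was lower, 4 of these 6 were lower (median −1.27). Of 10 Golgi genes counted, 1 was higher, Casc4 at 1.68 (1.14 to 2.24). Of 11 genes of kinesin cargo and syntaxin, 6 reached 5 CPM and 4 were higher, among them Trak2 at 1.87 (1.63 to 2.12) and Kif5a at 1.12 (0.49 to 1.75). Between the Spink1-led and the WT main cluster 0 of 4 passed, and between the Malat1-rich clusters 1 of 6 was higher. Neither of 2 Tmem45 relatives reached 5 CPM. Of the zonation genes, 2 of 7 pericentral genes that reached 5 CPM were lower, Oat at −2.23 and Glul at −1.70, and 4 of 9 periportal genes, among them Cyp2f2 at −1.71, Gls2 at −1.71 and Hal at −1.48.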

How the data were processed

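The authors aligned reads and counted UMIs with Cell Ranger (7.1.0 per the file headers; Seurat is also named in the submitters' processing notes), and deposited raw UMI counts, 1 value for each gene and barcode, not normalized. The notes name mm9, and the annotation and the counting of introns were not given in the sources used here; loci are on GRCm38. Barcodes with 1000 UMIs, 400 genes and at most 30% mitochondrial UMIs were kept (20158 in WT and 22214 in N-LKO), and doublets at a Scrublet score of 0.25 were removed (8.55% and 10.6%). The 2000 most variable genes, including Gpc3, H19, Igf2, Ly6d and A2ml1, gave 30 components and 23 Leiden clusters (scanpy 1.11.5, leidenalg 0.10.2, resolution 0.3). The authors' cell annotation was not used, so a difference from the study may come from rebuilt names. Clusters were named "X-like" from marker lists at a score of at least 0.15 with 3 markers raised 2-fold, a limit set after the data were seen. Of the clusters, 3 were mixed (1737 WT and 2578 N-LKO cells) and 2 unnamed (153 and 263). Ratios add 0.5 UMI to each sum and carry exact conditional binomial intervals, levels exact Poisson and shares Clopper-Pearson intervals. No test across samples could be run, with a single library on each side. The genes and lists were chosen with earlier results of these data known. Every listed gene is given, with up to 3 per related list and direction and the 3 most alike by Pearson r of log2(CPM + 1), except 3 genes that are not reported here. The scripts were tested on simulated counts. Alternatives covered filters, doublets, clustering, scaling and background.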

Additional observations from a re-analysis of the deposited data

Results flagged for a closer look

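Barcodes outside the kept cells also held 5 of these genes at levels above the WT library. In N-LKO barcodes left out for their mitochondrial share, H19 was at 12.3 CPM (0 UMIs in WT), Golm1 at 6.06 (2.68 in WT), Ly6d at 106 (10.6), Tmem45b at 10.8 (0.335) and Sybu at 20.8 CPM (1.51). In N-LKO barcodes of 500 to fewer than 1000 UMIs, H19 was at 11.9 CPM (0.0532 in WT), Golm1 at 7.72 (2.26), Ly6d at 144 (22.6), Tmem45b at 9.08 (0.319) and Sybu at 14.8 CPM (1.09). Over all genes in those sets, 22.8% and 15.4% were higher in N-LKO by the same threshold.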

How the results depend on the processing

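No paired analysis was possible because each group had 1 library, and for the same reason no replicate could be left out. The count of genes past the threshold was 5, and 3 to 8 under the alternatives: 8 with no filter on low values and 3 at 20 CPM. Their median log2 ratio of 4.33 moved to 3.69 with at least 2000 UMIs, 2.94 at a mitochondrial limit of 10% and 3.7 with no such limit. In alternatives chosen after seeing the data, it was 3.73 for the Malat1-rich clusters only and 3.68 with the N-LKO Malat1-rich cluster left unnamed. The 3.73 became 1.42 when genes with 0 UMIs in WT were set at 3 UMIs there. Subtracting free RNA gave 7.29, a void value, since the estimated share of free RNA in WT hepatocyte-like cells reached its cap of 100%. No call reversed, and the other 32 such values were within 1.5 times of the main one (log2 ratios compared as folds). A2ml1 was past the threshold, at 1.32 to 1.62, with at least 2000 UMIs, under either other mitochondrial limit, cell by cell and without the N-LKO Malat1-rich cluster. Those settings also held fewer N-LKO hepatocyte-like cells. The log2 ratio of Tmem45b, where it reached 5 CPM, ranged from 3.68 to 7.98, that of Sybu from 2.08 to 6.65 and that of Dnajc12 from −1.69 to 0.52. The upper ends of 7.98 and 6.65 came from the void subtraction of free RNA, beside 6.64 and 5.63 in the main setting. The share of all genes higher in N-LKO was 20.9%, 10.6% after scaling to the median ratio (lower 6.42%) and 5.51% with that cluster unnamed. With few UMIs, the sums of Afp, Gpc3 and Igf2 over hepatocyte-like cells could not be told from the background. All 12 Igf2 UMIs of the N-LKO Spink1-led cells were nonetheless in 2 cells.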
